A study of Sus scrofa with 6 samples.

Results

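Proteins made at the endoplasmic reticulum (ER) reach the Golgi apparatus in coated vesicles, and the mRNAs of this machinery were compared between pig intestinal epithelial cells with and without chenodeoxycholic acid (CDCA), a primary bile acid. The ER to Golgi transport and coat genes were chosen by name alone, as every gene whose symbol in the deposited table began with SEC and a digit, with TMED, KDELR, ARFGAP, TRAPPC or GOLGA, or was SAR1A, SAR1B or one of COPA, COPB, COPE, COPG and COPZ with or without a digit. The rule found 63 genes of the 31908 gene IDs, and 186 of the 63041 listed transcripts belonged to them. RNA sequencing was done on 6 libraries of IPEC-J2, a non-transformed line from the jejunum of newborn piglets. The CON group (n = 3) received phosphate-buffered saline and the CDCA group (n = 3) received 50 μM CDCA, both for 24 h. The study calls the replicates biological. All libraries came from this 1 cell line, and the labels do not say whether the replicates were separate cultures, so the p-values measure the spread between these libraries, which may be technical.

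The translocon, a channel of SEC61 subunits, lets new proteins into the ER, and signal peptidase cuts off their leading peptide. COPII coats (SAR1, SEC23, SEC24, SEC13 and SEC31) bud vesicles at ER exit sites that SEC16 organises, whereas COPI coats (coatomer), recruited by ARF GTPases, bud vesicles that carry proteins back from the Golgi. The p24 (TMED) proteins and KDEL receptors select or retrieve cargo, and TRAPP complexes tether vesicles and activate RAB GTPases. SEC22B acts in membrane fusion, and golgins are long tethers on Golgi membranes. Secretory and absorptive cells of the intestine depend on this route for mucus, digestive enzymes and surface proteins.

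Values are transcripts per 1000000 (TPM), which are corrected for transcript length. The listed transcripts summed to 351770 to 366073 TPM per library out of 1000000, and the sequencing depth cannot be read from them. What the rest belongs to is not known here, so the sum of a gene may lack some of its transcripts. Levels of different genes are therefore compared for listed transcripts alone, and a low sum need not mean a low gene. The mRNAs encoded by mitochondrial DNA (mtDNA) took 15.0%, 14.1% and 13.8% of the listed TPM in the CON libraries, but 3.26%, 2.90% and 3.45% in the CDCA libraries. A falling mtDNA share raises the other genes on this scale. Values scaled without the mtDNA genes are therefore given where they end or add a call or move a passing change by over 1.5 times. For them the other listed genes were rescaled to the listed total of each library. TPM that are not listed did not enter that total. This scaling can therefore take away more than the fall in mtDNA mRNAs had added, and its values are a limit rather than a corrected result. Of the epithelial markers, EPCAM, KRT8, KRT18 and CLDN1 averaged at least 1 TPM, while CDH1 and VIL1 were below 1 TPM. The 6 epithelial markers found summed to 856 to 912 TPM in CON and 620 to 674 TPM in CDCA, and of the 4 that averaged at least 1 TPM only CLDN1 fell by more than 2-fold. Of 10 markers of other cell types, only VIM, PECAM1 and CD68 averaged at least 1 TPM, and PTPRC, VWF, ACTA2, DES and COL3A1 were at or near 0. The sums were 1865 to 2066 TPM in CON and 1906 to 1962 TPM in CDCA. Nearly all of this was VIM, at 1986 TPM on average in CON and 1919 TPM in CDCA, above the epithelial markers together. The sums therefore say little about the other markers. PECAM1 averaged 1.92 TPM in CON and 1.22 TPM in CDCA. CD68 was at 0, 0 and 0.26 TPM in CON but 5.33, 4.75 and 4.44 TPM in CDCA. The part of these shifts in the results below was not tested. As the samples were bulk cultures, fewer cells of a type and less RNA per cell cannot be told apart.

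Most of the changes that passed the test in the transport genes were small rises after CDCA. Across the 63 genes, 47 averaged at least 1 TPM and were tested, and 21 of them rose and 4 fell at a false discovery rate (FDR) under 0.05 in limma, adjusted over 8708 genes. This is 44.7% of the tested transport genes higher, where 29.3% of all tested genes were higher, and 8.51% lower, where 23.9% of all tested genes were lower. With a change of more than 2-fold (log2 over 1) also required, only TRAPPC2L rose and only SEC23A and TRAPPC9 fell. SEC23A passed the filter on low values only through its CON level, and with no filter neither it nor TRAPPC2L was called. Those calls are 2.13% and 4.26% of the tested transport genes, near the 3.51% and 3.9% called higher and lower among all tested genes. In 21 genes all CDCA libraries lay above all CON libraries (33.7% of all tested genes did) and in 4 they lay below (27.8% of all tested genes did).

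The summed level of the 63 genes was 1514, 1487 and 1441 TPM with CON and 1803, 1825 and 1820 TPM with CDCA. The median log2 fold change (CDCA against CON, on log2 of TPM + 1 throughout) was 0.23, with quartiles of -0.04 and 0.43, beside a median of 0.05 and quartiles of -0.28 and 0.36 for all tested genes. When the libraries were scaled without the mtDNA-encoded genes, the median of the transport genes was 0.06 and that of all genes was -0.10. The difference between both medians was 0.16 on that scale and 0.18 as deposited. The number of transport genes higher at FDR under 0.05 was then 13 (27.7%, beside 18.9% of all genes) and the number lower was 7 (14.9%, beside 32.7% of all genes). All 13 were among the 21, and the 4 lower genes stayed lower. The 8 that no longer passed on this scale were COPB1, GOLGA4, SEC13, SEC22B, SEC61B, SEC62, TMED1 and TMED9. By role, the median was then still above 0 for the translocon and signal peptidase (0.19), the GOLGA genes (0.19), the COPI coat (0.11) and the SEC22 genes (0.06). It was below 0 for the COPII coat (-0.11), the p24 receptors (-0.11) and the TRAPP subunits (-0.13). With the libraries instead scaled to the same median ratio, 20 transport genes were higher and 4 lower. This was 42.6% and 8.51%, beside 26.4% and 27.0% of all genes.

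**Figure D1:**
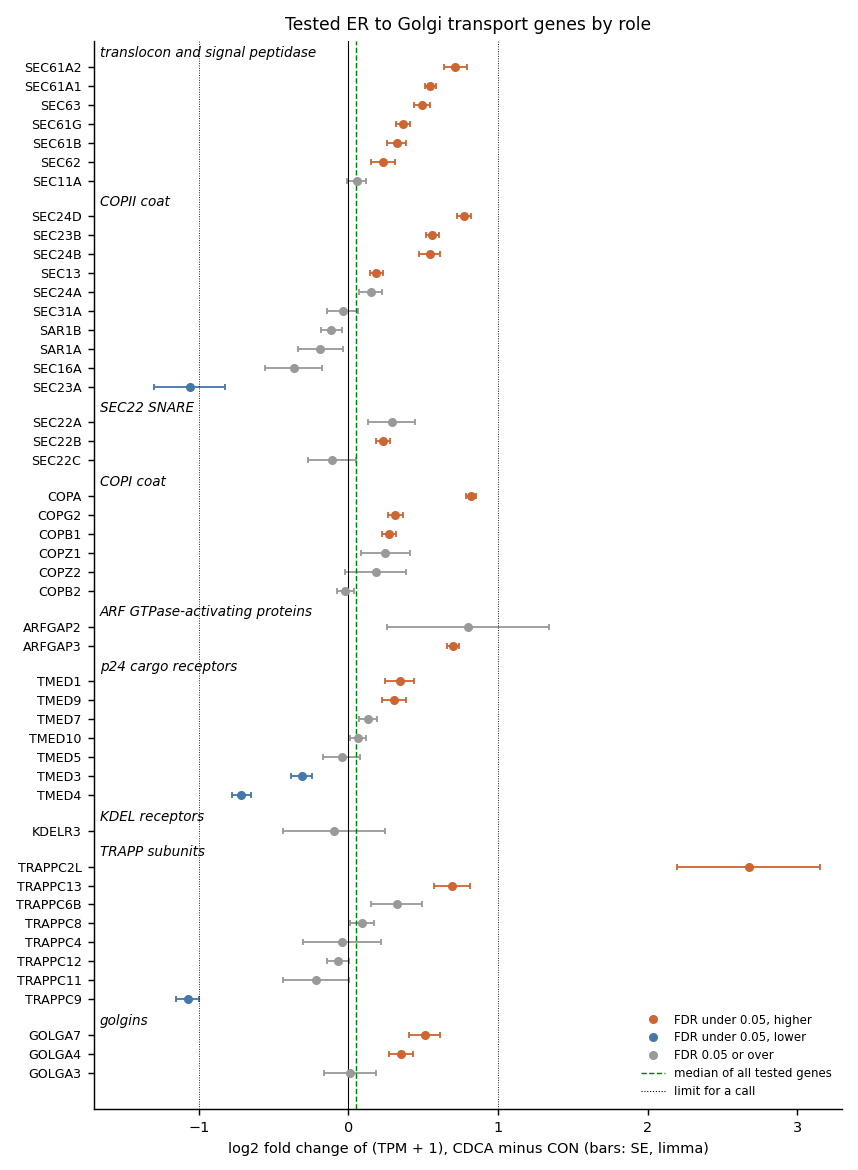
Log2 fold change (CDCA against CON, on log2 of TPM + 1; horizontal axis) of each of the 47 tested genes, grouped by role, with bars showing the standard error (n = 3 per group). Most points lie between 0 and 1, TRAPPC2L lies apart at 2.67 with the longest bars but for ARFGAP2, and SEC23A and TRAPPC9 lie beyond -1.

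**Figure D2:**
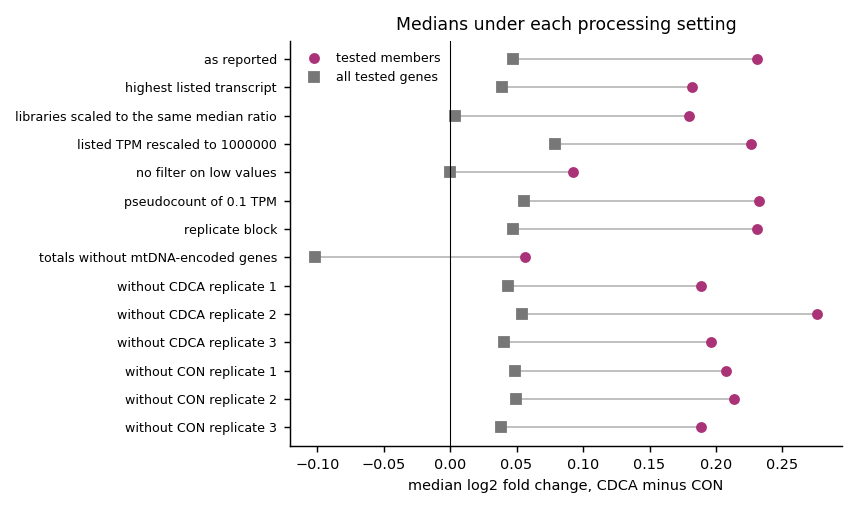
Median log2 fold change of the transport genes and of all tested genes under each way of processing (n = 3 CON and 3 CDCA libraries, or 1 fewer where a library was left out). The median of the transport genes is above that of all genes under every setting, and both medians are lowest when the mtDNA-encoded genes are left out of the totals, at 0.06 and -0.10.

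Most genes for entry into the ER rose. Of 7 genes of the translocon and signal peptidase, all were tested, 6 rose and none fell (85.7% and 0%, beside 29.3% and 23.9% of all tested genes), with a median log2 fold change of 0.36. Without the mtDNA genes 4 rose and none fell (57.1% higher, beside 18.9% of all genes). Their summed level went from 375, 371 and 353 TPM in CON to 465, 471 and 480 TPM in CDCA. SEC61A1 (ENSSSCG00000011621), which forms the channel itself, was at 86.3, 87.6 and 82.5 TPM in CON against 124, 127 and 125 TPM in CDCA. The groups were far apart relative to their spread, with a log2 fold change of 0.55 ± 0.04 (SE, n = 3 per group, limma FDR 5.5e-05). SEC61A2 (ENSSSCG00000011114), the other gene for the channel subunit, was much lower, at 3.67, 3.64 and 4.18 TPM in CON against 6.96, 7.11 and 6.67 TPM in CDCA. It rose by 0.71 ± 0.08 (SE, FDR 0.00037), so both genes for the channel rose, and reads that they share could have been split between them by the counting.

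Both small subunits of the channel also rose, by less than the channel genes. SEC61G went from 70.1, 70.5 and 67.2 TPM to 85.9, 89.1 and 93.3 TPM (log2 fold change 0.36, FDR 0.00067), or 0.19 (FDR 0.0135) without the mtDNA genes. SEC61B went from 93.6, 91.4 and 81.1 TPM to 107, 110 and 116 TPM (0.32, FDR 0.0053), but missed the threshold without the mtDNA genes (0.15, FDR 0.106). The ratio of SEC61G to SEC61B overlapped between the groups, at 0.783 ± 0.041 in CON and 0.806 ± 0.005 in CDCA (SD, n = 3), whereas SEC61A1 to SEC61B was 0.966 ± 0.048 and 1.13 ± 0.04. SEC63, which works with SEC62 to bring finished chains into the ER, rose from 29.4, 27.2 and 27.0 TPM to 41.2, 37.8 and 39.6 TPM (0.49, FDR 0.00040), or 0.32 (FDR 0.0036) without the mtDNA genes. SEC62 itself was borderline, from 40.9, 35.9 and 33.7 TPM to 43.8, 40.6 and 45.5 TPM, with overlapping groups (0.23, FDR 0.047). Its FDR was 0.583 without the mtDNA genes and over 0.05 without CDCA replicate 1 or 3 or CON replicate 2 or 3. SEC62 also missed the threshold with libraries scaled to the same median ratio (FDR 0.0765) and for its highest listed transcript (FDR 0.0708). SEC11A, a catalytic subunit of signal peptidase, was at 54.5 ± 3.2 TPM in CON and 56.5 ± 3.2 TPM in CDCA (SD, n = 3, FDR 0.498).

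The COPII genes moved in both directions. Of their 13 genes, 10 were tested, 4 rose, 1 fell and 5 did not pass, and the median was 0.05. The shares were 40% higher and 10% lower, beside 29.3% and 23.9% of all tested genes, and without the mtDNA genes 3 rose and 2 fell. The rises were in the inner coat, with SEC23B, SEC24B and SEC24D, and in SEC13 of the outer cage. SEC24D (ENSSSCG00000009112), a cargo-binding subunit, was at 32.3, 30.1 and 29.9 TPM in CON against 53.7, 54.0 and 52.0 TPM in CDCA, a rise of 0.77 ± 0.05 (SE, FDR 3.4e-05). Both of its abundant transcripts had higher means in CDCA, by 1.65-fold and 1.89-fold. SEC24B, another cargo-binding subunit, went from 8.38, 8.26 and 8.45 TPM to 12.8, 11.6 and 13.7 TPM (0.54, FDR 0.00093). SEC24A, a further subunit of this kind, was at 14.4, 13.7 and 12.1 TPM in CON and 15.7, 14.3 and 14.7 TPM in CDCA, with overlapping groups (0.15, FDR 0.147). The ratio of SEC24D to SEC24A was accordingly 2.31 ± 0.15 in CON and 3.58 ± 0.19 in CDCA (SD, n = 3), with no overlap.

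The paralogs of SEC23, which bind SEC24 and switch off SAR1, moved in opposite directions at very different levels. SEC23B (ENSSSCG00000007097) was at 69.7, 65.2 and 63.6 TPM in CON against 97.4, 97.7 and 99.0 TPM in CDCA, a rise of 0.56 ± 0.04 (SE, FDR 9.2e-05). SEC23A (ENSSSCG00000001934) had the lowest mean over all 6 libraries of the tested transport genes, though not in CON alone. It was at 1.98, 1.53 and 3.44 TPM in CON and 0.30, 0.80 and 0.58 TPM in CDCA. It fell by 1.06 on the log2 scale (SE 0.24, FDR 0.0091), and the groups did not overlap. Its CDCA mean of 0.56 TPM lies below the filter of 1 TPM, so the gene entered the test only through its CON mean of 2.32 TPM. This call depends on single libraries, as the fold change was -0.93 without CDCA replicate 1 and -0.83 without CON replicate 3, both short of the 2-fold limit, and its FDR was 0.0749 with no filter on low values. The size also depends on the scale, at -1.87 with a pseudocount of 0.1 TPM and -1.5 with listed TPM rescaled to 1000000. Its most abundant transcript was at 1.98, 1.47 and 3.44 TPM in CON against 0, 0 and 0.18 TPM in CDCA, while a second transcript was at 0 in all CON libraries and at 0.30, 0.80 and 0.40 TPM in CDCA.

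Of the remaining COPII genes, only SEC13 passed the test as deposited. SEC13, the most abundant COPII gene, went from 95.6, 98.8 and 97.6 TPM to 111, 116 and 107 TPM (0.19 ± 0.04, SE, FDR 0.0089), but its change was 0.01 (FDR 0.811) without the mtDNA genes. SEC31A, its partner, was at 10.2 TPM on average in CON and 9.97 TPM in CDCA (-0.04, FDR 0.774). Its transcripts did not move together: the third in abundance was at 1.04, 0.64 and 0.61 TPM in CON against 2.64, 3.08 and 1.45 TPM in CDCA, while the mean levels of the first and second were 0.782 and 0.806 times those in CON. The GTPases that start the coat did not pass the test, with SAR1B at -0.12 (FDR 0.208) and SAR1A at -0.19 (FDR 0.337). Without the mtDNA genes SAR1B was lower by the test (-0.28, FDR 0.0164). SEC16A was at -0.37 (FDR 0.152).

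Of the SEC22 genes, only SEC22B of 3 tested passed the test (33.3%, near the 29.3% higher among all tested genes). None passed without the mtDNA genes. SEC22B had the highest mean over all 6 libraries of the genes that the naming rule found, although COPA was higher in CDCA. It was at 111, 104 and 105 TPM in CON against 131, 123 and 122 TPM in CDCA. The groups did not overlap, and the rise was 0.23 ± 0.04 (SE, FDR 0.0050), or 0.06 (FDR 0.353) without the mtDNA genes. SEC22A (0.29, FDR 0.168) and SEC22C (-0.11, FDR 0.603) were below 4 TPM in both groups' means.

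The genes of the COPI coat did not shift as a unit. Of 7 genes, 6 were tested, 3 rose and none fell as deposited, with a median of 0.26. This was 50% higher and 0% lower, beside 29.3% and 23.9% of all tested genes, and without the mtDNA genes 2 rose and 1 fell. COPA (ENSSSCG00000006386), the alpha subunit of the outer layer, was at 79.1, 79.0 and 76.2 TPM in CON against 138, 140 and 138 TPM in CDCA. Its rise of 0.82 ± 0.03 (SE, FDR 9.1e-06) was between 0.80 and 0.83 when any 1 library was left out, and 0.65 without the mtDNA genes. COPB2, which pairs with COPA in that layer, was at 66.9, 62.1 and 58.6 TPM in CON against 59.8, 61.2 and 63.7 TPM in CDCA. These groups overlapped (-0.02, FDR 0.779), and without the mtDNA genes COPB2 was lower by the test (-0.19, FDR 0.0357). The ratio of COPA to COPB2 went from 1.25 ± 0.06 in CON to 2.25 ± 0.08 in CDCA (SD, n = 3).

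Of the inner layer, COPB1 and COPG2 lay between these values. COPB1, the beta subunit, went from 81.3, 77.7 and 73.5 TPM to 95.0, 92.2 and 94.0 TPM (0.27, FDR 0.0027), or 0.10 (FDR 0.138) without the mtDNA genes. COPG2, a gamma subunit, went from 14.0, 14.7 and 14.5 TPM to 18.0, 17.9 and 18.5 TPM (0.31 ± 0.05, SE, FDR 0.0018), or 0.15 (FDR 0.0388) without the mtDNA genes. In its most abundant transcript the change was 0.01 (FDR 0.984), so the rise lay in its other transcripts. The zeta subunits COPZ1 (0.25, FDR 0.247) and COPZ2 (0.18, FDR 0.485) did not pass, and COPG1, the other gamma subunit, averaged 0.467 TPM in CON and 0.35 TPM in CDCA and was not tested.

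**Figure D3:**
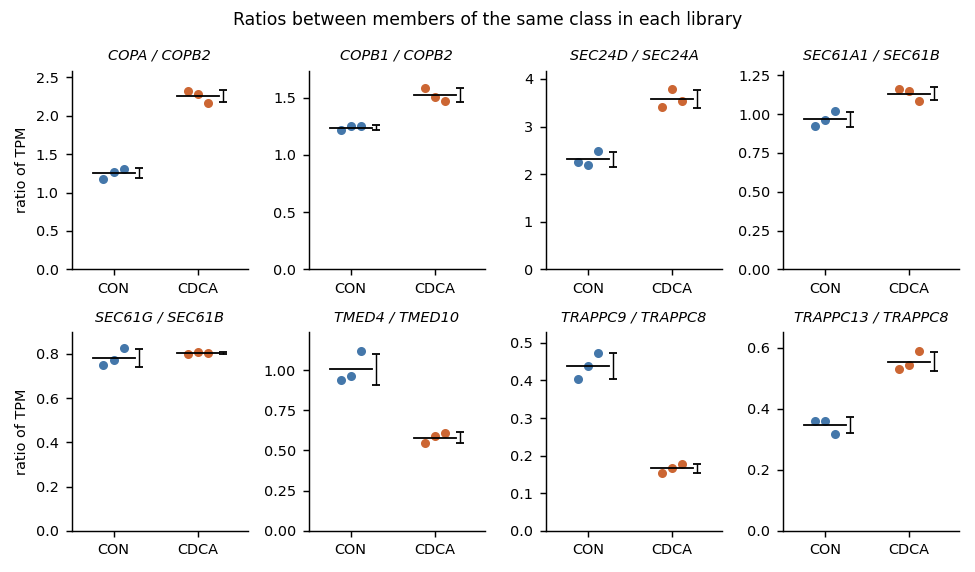
Ratio of the TPM values of paired genes in each library (vertical axes, linear) for CON and CDCA, with 1 point per library, the group mean as a line and the SD as a bar beside it (n = 3). COPA to COPB2 is higher in all CDCA libraries, TMED4 to TMED10 and TRAPPC9 to TRAPPC8 are lower in all of them, and SEC61G to SEC61B overlaps between the groups.

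ARFGAP3 (ENSSSCG00000000037), a Golgi protein that makes ARF hydrolyse its GTP on the COPI coat, was at 35.7, 34.7 and 34.3 TPM in CON against 57.0, 56.1 and 58.9 TPM in CDCA. The rise was 0.70 ± 0.04 (SE, FDR 2.9e-05), ranged from 0.68 to 0.72 when any 1 library was left out, and was 0.53 (FDR 0.00011) without the mtDNA genes. All 5 of its expressed transcripts had higher means in CDCA, by 1.34-fold to 2.09-fold, although the most abundant transcript taken alone did not pass the test (0.39, FDR 0.0916). ARFGAP2, a close paralog of ARFGAP3 that also acts with coatomer, was at 0, 1.71 and 3.35 TPM in CON against 1.65, 3.95 and 3.75 TPM in CDCA. With 1 library listed at 0 and overlapping groups, its change could not be resolved (0.80, SE 0.54, FDR 0.258).

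**Figure D4:**
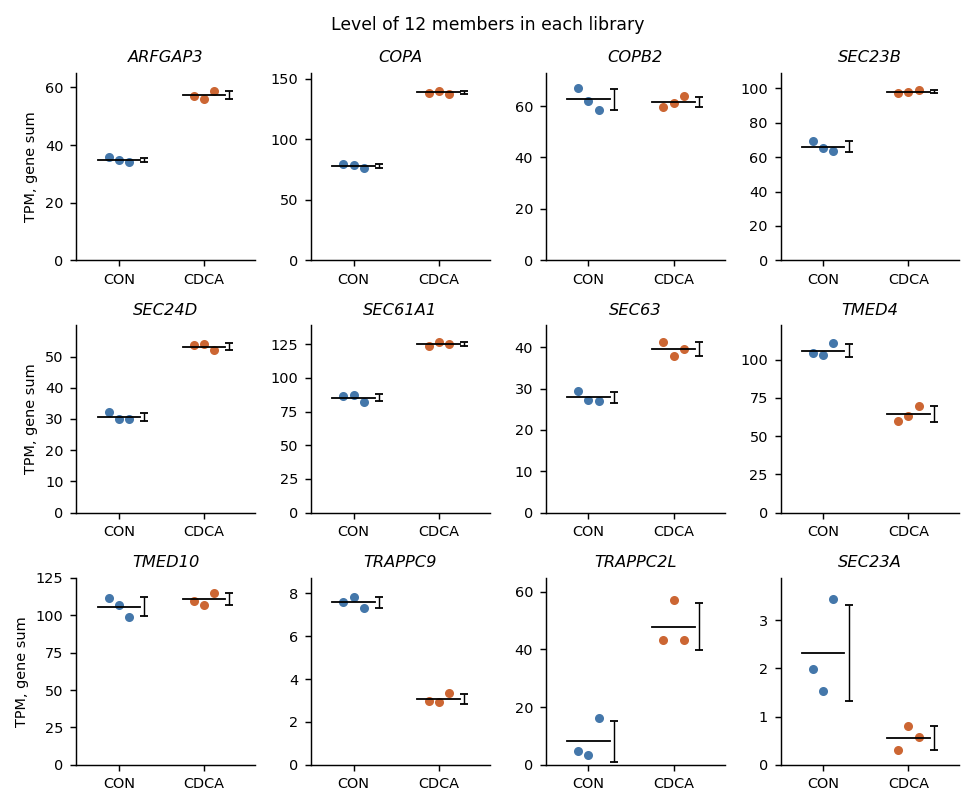
TPM (vertical axes, linear) in each of the 3 CON and 3 CDCA libraries for genes named in the text, with 1 point per library, the group mean as a line and the SD as a bar beside it. COPA, ARFGAP3 and SEC24D are higher and TMED4 and TRAPPC9 lower in every CDCA library, and the CON libraries of TRAPPC2L spread from 3.46 to 16.2 TPM.

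The p24 cargo receptors moved in both directions. Of 8 genes, 7 were tested, 2 rose, 2 fell and 3 did not pass, with a median of 0.07. Each direction was 28.6% of the tested p24 genes, near the 29.3% higher and 23.9% lower among all tested genes, and without the mtDNA genes none rose and 2 fell. Their sum was 326, 313 and 305 TPM in CON and 274, 269 and 286 TPM in CDCA, lower in all CDCA libraries. With TMED2, an abundant p24 gene that carries no symbol of its own in the deposited table, the sums overlapped, at 566, 545 and 515 TPM in CON against 509, 492 and 525 TPM in CDCA. TMED4 (ENSSSCG00000016744) was at 104, 103 and 111 TPM in CON against 59.7, 63.2 and 69.8 TPM in CDCA. It fell by 0.72 on the log2 scale (SE 0.06, FDR 0.00017), and its 3 transcripts were at 0.619, 0.611 and 0.573 of their CON means. TMED3 went from 43.5, 43.9 and 37.8 TPM to 32.8, 32.1 and 35.2 TPM and fell by 0.31 (SE 0.07, FDR 0.0095), but did not pass with no filter on low values (FDR 0.0667) or for its highest listed transcript (-0.27, FDR 0.0590). Its change was -0.48 (FDR 0.0018) without the mtDNA genes.

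TMED10 had the highest mean over all 6 libraries of the p24 genes that the naming rule found, with TMED4 level with it in CON. It was at 111, 107 and 99.2 TPM in CON against 110, 107 and 115 TPM in CDCA, with overlapping groups (0.07, FDR 0.346). The ratio of TMED4 to TMED10, which are thought to work in mixed p24 complexes, was 1.01 ± 0.10 in CON and 0.580 ± 0.032 in CDCA (SD, n = 3). TMED9 went from 16.5, 14.9 and 16.2 TPM to 21.9, 18.0 and 19.6 TPM (0.30 ± 0.08, SE, FDR 0.018). TMED1 was low, from 2.24, 2.0 and 1.82 TPM to 2.94, 2.89 and 2.64 TPM (0.34 ± 0.10, SE, FDR 0.024). Neither rise passed without the mtDNA genes (FDR 0.204 and 0.107), and the FDR was also above 0.05 for TMED9 without CON replicate 2 or with no filter (0.0990) and for TMED1 without CDCA replicate 1 or 2 or CON replicate 2 or 3. TMED7 (0.13, FDR 0.102) and TMED5 (-0.05, FDR 0.782) did not pass.

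KDELR3, a receptor that returns escaped chaperones to the ER, was at 1.32, 4.98 and 3.49 TPM in CON against 2.84, 2.10 and 3.28 TPM in CDCA. The CDCA libraries lay inside the CON range (-0.10, SE 0.34, FDR 0.830). KDELR2 averaged 0.513 TPM in CON and 0.647 TPM in CDCA and was not tested.

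The TRAPP subunits held 2 of the 3 transport genes that passed the 2-fold limit, 1 in each direction. Of 13 genes, 8 were tested, 2 rose, 1 fell and 5 did not pass, with a median of 0.02. The shares were 25% higher and 12.5% lower, beside 29.3% and 23.9% of all tested genes, and 25% each way without the mtDNA genes, beside 18.9% and 32.7% of all genes. TRAPPC2L (ENSSSCG00000002646), a small core subunit, was at 4.72, 3.46 and 16.2 TPM in CON against 43.2, 57.2 and 43.3 TPM in CDCA. All CDCA libraries were above all CON libraries, but CON replicate 3 stood well above the other two. The rise was 2.67 ± 0.48 (SE, FDR 0.0035) and 3.26 without CON replicate 3, and the FDR was 0.0503 with no filter on low values. It came from 1 transcript, which was at 1.02, 0 and 11.9 TPM in CON against 35.4, 51.5 and 37.8 TPM in CDCA, and which made up 52.9% of the gene's mean level in CON and 86.8% in CDCA. The mean levels of the next transcripts differed by 2.07-fold and 1.11-fold.

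TRAPPC9 (ENSSSCG00000005934), a subunit found only in the larger TRAPPII complex, was at 7.59, 7.84 and 7.34 TPM in CON against 3.00, 2.91 and 3.35 TPM in CDCA. It fell by 1.07 on the log2 scale (SE 0.08, FDR 6.3e-05), and by a log2 change of -1.12 to -1.04 when any 1 library was left out. Its main transcript, with 96.5% of the gene's CON level, was at 0.390 of its CON mean. TRAPPC10, its partner in TRAPPII, averaged 1.07 TPM in CON and 0.617 TPM in CDCA, below the limit for testing. TRAPPC13, of the TRAPPIII complex, went from 6.75, 6.46 and 4.89 TPM to 10.3, 9.51 and 11.1 TPM (0.69 ± 0.12, SE, FDR 0.0031). TRAPPC8 of the same complex was at 18.8, 17.9 and 15.5 TPM in CON against 19.4, 17.5 and 18.8 TPM in CDCA, with overlapping groups (0.09, FDR 0.375). Against TRAPPC8, TRAPPC9 went from 0.439 ± 0.035 to 0.167 ± 0.012 and TRAPPC13 from 0.346 ± 0.026 to 0.554 ± 0.032 (SD, n = 3). TRAPPC12 (-0.07, FDR 0.439, but lower by the test without the mtDNA genes at -0.23, FDR 0.0373), TRAPPC11 (-0.22, FDR 0.445), TRAPPC4 (-0.04, FDR 0.902) and TRAPPC6B (0.32, FDR 0.153) did not pass, although TRAPPC6B did without CDCA replicate 2 (0.48, FDR 0.0403) and for its highest listed transcript (0.35, FDR 0.0156).

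**Figure D5:**
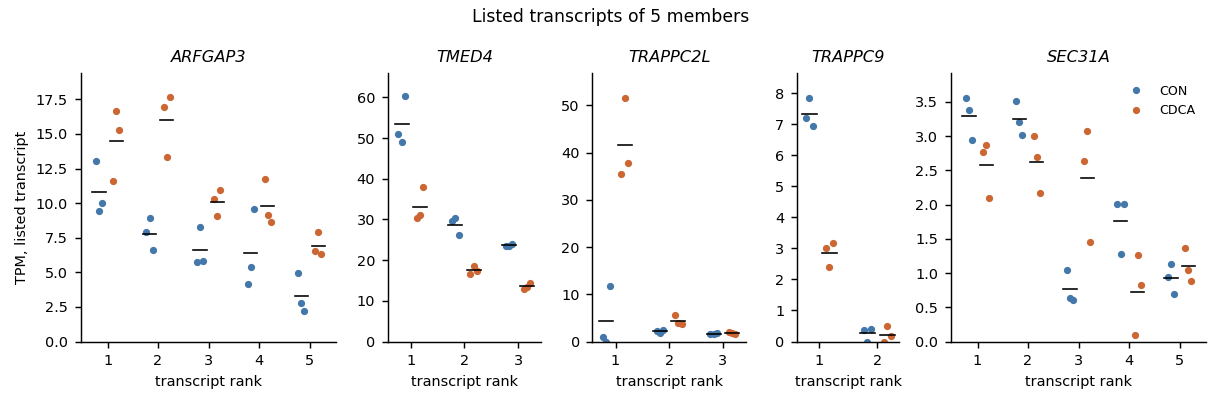
TPM of the most abundant transcripts of selected genes in each library (vertical axes, linear), with transcripts ranked within the gene by mean level, 1 point per library and lines for the group means (n = 3). The transcript means of ARFGAP3 and of TMED4 differ between the groups in 1 direction, although the groups overlap for ARFGAP3 transcripts 1 and 4. For TRAPPC2L the first transcript carries most of the difference.

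Of the genes named GOLGA, 3 of 6 were tested and 2 rose (66.7%, beside 29.3% of all tested genes), and 1 rose without the mtDNA genes. GOLGA7 matches the naming rule without encoding a long tether, as its product is a partner of a protein palmitoyltransferase at the Golgi. Leaving it out, 1 of 2 golgins rose, and none without the mtDNA genes. GOLGA7 went from 64.6, 74.3 and 67.8 TPM to 90.4, 115 and 91.4 TPM (0.51 ± 0.10, SE, FDR 0.0060), with an FDR of 0.0643 when no filter on low values was used. Its rise was 0.33 (FDR 0.0294) without the mtDNA genes. GOLGA4, a tether of the trans-Golgi, went from 8.04, 8.15 and 7.40 TPM to 10.8, 9.30 and 10.9 TPM (0.35 ± 0.08, SE, FDR 0.0096), or 0.19 (FDR 0.0897) without the mtDNA genes. GOLGA3 was at 5.89 TPM in CON and 5.95 TPM in CDCA on average (0.01, FDR 0.962).

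The 16 genes not tested averaged below 1 TPM over all libraries, 0.843 TPM at most. Among these, 7 stayed under 0.2 TPM in every library, and SEC14L1 was listed at 0 throughout. In GOLGA7B alone the groups were apart, at 0.13, 0.22 and 0.22 TPM in CON and 0.54, 0.67 and 0.55 TPM in CDCA. Neither SEC14-like gene was tested. These encode lipid-binding proteins and match the naming rule without being part of the coats. Low genes were rarely resolved, as only 2 of the 12 tested genes with means under 5 TPM passed the test, against 16 of the 21 with means of at least 20 TPM (14 higher, 2 lower).

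A wider list of ER to Golgi genes that the naming rule leaves out held 70 symbols, of which 67 were listed and 53 tested. At FDR under 0.05, 26 rose and 7 fell (49.1% and 13.2%, beside 29.3% and 23.9% of all tested genes), and the median log2 fold change was 0.32. Without the mtDNA genes 19 rose and 10 fell (35.8% and 18.9%, beside 18.9% and 32.7% of all genes), with a median of 0.17. Rises were most frequent in the part of the list with GTPases, their regulators, exit-site factors and ARCN1 of COPI. There 11 of 16 rose and 1 fell (median 0.40), or 7 and 1 with a median of 0.25 without the mtDNA genes. Fusion and tethering factors came next (13 of 25 rose, 4 fell, median 0.35, or 10 and 5 with a median of 0.20 without the mtDNA genes). Of the 11 tested cargo receptors 2 rose and 2 fell (median -0.08, or 2 and 4 with a median of -0.25 without the mtDNA genes), and of the 3 transcription factors of secretory genes 1 was tested and did not pass. ARF4, a GTPase of the early Golgi, was the one gene of the list called higher (log2 fold change over 1), from 11.9, 11.4 and 10.9 TPM to 30.8, 36.2 and 28.3 TPM (1.40 ± 0.09, SE, FDR 5.1e-05). COG3, a subunit of the COG tether of the Golgi, was the one called lower, from 53.4, 51.0 and 49.0 TPM to 24.2, 23.1 and 24.6 TPM (log2 fold change -1.06, SE 0.05, FDR 1.3e-05).

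The same list held ARCN1, the delta subunit of COPI, which was at 1.62 ± 0.60 TPM in CON and 3.88 ± 1.38 TPM in CDCA (SD, n = 3). Its log2 fold change was 0.88 (FDR 0.0258), or 1.21 (FDR 0.0252) with a pseudocount of 0.1 TPM and 1.11 (FDR 0.0259) with listed TPM rescaled to 1000000, both beyond the 2-fold limit. The FDR was above 0.05 without CDCA replicate 2 or 3 or CON replicate 2 or 3, with no filter on low values (0.168) and with the replicate block (0.0512).

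Among the receptors and exit-site factors of this list, LMAN1, which carries glycoproteins out of the ER, rose from 15.4 ± 1.1 to 28.7 ± 3.1 TPM (SD, n = 3; log2 fold change 0.85, FDR 0.00031). MIA3, which helps to load collagen at exit sites, rose from 22.9 ± 0.9 to 37.6 ± 0.3 TPM (0.70, FDR 4.6e-05). TFG, an organiser of exit sites, rose from 59.8 ± 2.6 to 93.4 ± 0.9 TPM (0.64, FDR 5.1e-05). CNIH4, another receptor for cargo, was at 47.2 ± 4.1 and 36.0 ± 4.2 TPM (-0.38, FDR 0.0159), with the FDR just above 0.05 without CDCA replicate 1 or 3 or CON replicate 1 or 2, and at 0.116 with no filter.

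Close relatives of the transport genes that carried no symbol, or another one, in the deposited table were looked up by gene ID. Of 11 such genes 8 were tested, 6 rose, none fell and 2 did not pass (75% higher, beside 29.3% of all tested genes), and 5 rose without the mtDNA genes (62.5%, beside 18.9%). COPE, the epsilon subunit of COPI, rose from 126, 128 and 129 TPM to 171, 173 and 171 TPM (0.42, FDR 8.1e-05), or 0.25 without the mtDNA genes. ARFGAP1, another Golgi protein that acts on ARF, rose from 6.69, 8.60 and 8.20 TPM to 18.9, 16.4 and 12.5 TPM (0.93 ± 0.16, SE, FDR 0.0026). KDELR1 rose from 36.3, 37.7 and 35.0 TPM to 47.0, 46.1 and 45.5 TPM (0.34, FDR 0.00083), and SEC24C from 20.4 ± 1.7 to 27.2 ± 1.4 TPM (0.40, FDR 0.0035). Without the mtDNA genes these changes were 0.17 (FDR 0.0194) and 0.23 (FDR 0.0293). TMED2, a p24 protein, was at 227 ± 16 and 233 ± 8 TPM (0.04, FDR 0.635), and SEC14L2 was at 0.09 (FDR 0.372). SEC11C, the other catalytic subunit of signal peptidase, rose from 114 ± 3 to 139 ± 4 TPM (0.29, FDR 0.0012), but its change was 0.11 (FDR 0.0629) without the mtDNA genes. GOLGA2, a golgin of the cis-Golgi, rose from 22.2 ± 0.5 to 31.3 ± 0.2 TPM (0.48, FDR 0.00013), or 0.31 without the mtDNA genes.

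Counting by strand is not given in the sources used here, so reads from overlapping genes may not be told apart. In the RefSeq gene table of the assembly Sscrofa11.1, 61 of the 63 genes were matched by symbol and 15 of them overlapped another protein-coding gene, among them COPA, COPB2, COPG2, SEC24A with SAR1B, SEC24D, TMED1 and TRAPPC13.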

How the data were processed

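The deposited table held 1 TPM value per transcript and library. Per the study's methods the authors estimated it with RSEM; the submitters' processing notes name Bowtie 0.12.2 and the build mm10, although the IDs are pig Ensembl IDs, so no coordinates were used. TPM values were summed per gene ID. The 8708 genes that averaged 1 TPM or more were fitted as log2(TPM + 1) with limma 3.58.1 in R 4.3.3 (trended, moderated; Benjamini-Hochberg over all 8708 genes), 3 CON against 3 CDCA libraries. A call needed FDR under 0.05 and a log2 fold change beyond 1 in size; counts at FDR under 0.05 alone are also given. Fold changes on this scale understate those of low genes. The authors used edgeR for differential expression, which was not run here because TPM are not counts. The script was tested on simulated data.

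The members and lists were chosen with earlier results of these data known. Named were ARFGAP3, called genes, the 2 largest rises and falls per role among those with FDR under 0.05, the most abundant tested gene per role, and called genes of the wider list; all other genes, all ratios and the looked-up relatives were chosen after their values were seen, and ratios are descriptions without a test. Genes and transcripts called most or least abundant, and transcript ranks, refer to the mean over all 6 libraries. Alternatives were a pseudocount of 0.1 TPM, no filter, other scalings, the highest transcript, a replicate block and leaving out each library. No sequences were used.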

Additional observations from a re-analysis of the deposited data

How the results depend on the processing

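The count higher at FDR under 0.05 stayed within 1.5 times of 21 except at 13 without the mtDNA-encoded genes; the count lower, 4 as reported, was 7 on that scale and 2 with no filter on low values. With no filter, which tests 31908 genes, the calls beyond 2-fold were 0 higher and 1 lower, since the FDR was 0.0503 for TRAPPC2L and 0.0749 for SEC23A, and SEC62, TMED3, TMED9 and GOLGA7 also no longer passed at FDR under 0.05. Leaving out 1 library gave 1 to 2 calls lower, with 1 without CDCA replicate 1 or CON replicate 3. The median log2 fold change, 0.23 as reported, was 0.18 for the highest listed transcript, 0.18 with libraries scaled to the same median ratio, 0.092 with no filter and 0.056 without the mtDNA genes, and 0.19 to 0.28 when 1 library was left out. Some genes that did not pass as reported changed sign: without the mtDNA genes SEC11A was -0.12, SEC24A -0.015, TMED10 -0.11, TMED7 -0.037, TRAPPC8 -0.074 and GOLGA3 -0.14 (-0.032 at the same median ratio), and COPB2 was 0.00023 with listed TPM rescaled to 1000000. Leaving out 1 library gave COPB2 -0.066 to 0.028, GOLGA3 -0.13 to 0.12, KDELR3 -0.48 to 0.20, SEC22C -0.24 to 0.055, SEC31A -0.11 to 0.060, TMED5 -0.13 to 0.080 and TRAPPC4 -0.22 to 0.21. For these changes of sign the cause was not tested. With the replicate number as a block 20 genes were higher and 4 lower and SEC62 missed the threshold (FDR 0.0628); deviations of same-numbered libraries correlated at -0.035, -0.092 and -0.051, no library correlated best with its own number, and the numbers do not pair them. The block changed the call of no other transport gene. Over all genes the calls beyond 2-fold were 306 higher and 340 lower, but 509 and 505 with a pseudocount of 0.1 TPM, 523 and 481 with listed TPM rescaled, and 221 and 485 without the mtDNA genes. TPM hold no depth, so no counting error could be given.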

Other observations

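Within the COG complex, the tether that receives vesicles at the Golgi, 4 of the 8 tested subunits passed the test, 2 in each direction. This is 25% each way, near the 29.3% higher and 23.9% lower among all tested genes. COG4 rose from 12.9 ± 0.4 to 19.8 ± 0.5 TPM (SD, n = 3 per group; log2 fold change 0.59, limma FDR 0.00014) and COG1 from 19.9 ± 1.5 to 27.2 ± 0.3 TPM (0.43, FDR 0.0013). COG3 fell from 51.1 ± 2.2 to 24.0 ± 0.8 TPM (-1.06, FDR 1.3e-05) and COG7 from 9.69 ± 0.09 to 7.02 ± 0.62 TPM (-0.42, FDR 0.0034). All 4 changes kept their direction and passed the test without the mtDNA genes as well, where COG1 was at 0.26 (FDR 0.0105). The other tested subunits did not pass, with COG2 at -0.08 (FDR 0.735), COG5 at 0.02 (FDR 0.843), COG6 at 0.11 (FDR 0.560) and COG8 at -0.30 (FDR 0.250).

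The paralogous GTPases RAB1A and RAB1B, which direct traffic between the ER and the Golgi, also moved apart. RAB1A was at 133, 139 and 130 TPM in CON against 171, 166 and 164 TPM in CDCA (0.32, FDR 0.00075). RAB1B was at 58.8, 61.4 and 66.1 TPM in CON against 48.0, 48.8 and 48.5 TPM in CDCA (-0.35, FDR 0.0014). Without the mtDNA genes these changes were 0.14 (FDR 0.0235) and -0.52 (FDR 0.00018). The genes in this section were chosen after their values were seen.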
